A study of Drosophila melanogaster with 3 samples.

Results

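The binding sites described here are those of Phol (Pleiohomeotic-like), a DNA-binding Polycomb group protein with zinc fingers, in the stretches of the fly genome where its sites are most crowded. A site is given by its summit, the position of highest signal in a peak. Chromosome arms 2L, 2R, 3L, 3R, 4 and X were cut into 2680 tiles of 50 kb from their first base, and tiles were chosen by their number of summits in the reproducible peak list: those with 12 or more were kept. They are called dense tiles below, and the comparison is with tiles that hold 1 to 11 summits. Dense tiles made up 3.77% of all tiles and held 1374 of the 10264 summits (13.4%). Another 1869 tiles held the other 8890 summits, and 710 tiles held none.

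Binding was measured by chromatin immunoprecipitation and sequencing (ChIP-seq) with an antibody against green fluorescent protein, in whole embryos of Drosophila melanogaster of mixed sex, 0 to 16 hours old. The embryos came from a transgenic line that expresses Phol with green fluorescent protein fused to its C terminus. All samples form a single group of 3 biological replicates, and it is not stated that embryos were collected separately for each, so the spread between replicates may be technical. The reproducible list comes from the pooled reads of these replicates, the control library is not analysed here, and read depth is unknown. Whole embryos hold many cell types, so summits in the same tile need not be bound in the same cells. The tagged protein comes from a transgene, and the labels do not give its level.

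Phol and its paralog Pho bind a shared DNA site with the core GCCAT, and both are known for recruiting Polycomb complexes to the response elements of developmental genes. Promoters of widely expressed genes often sit close together in the fly genome, while genes that pattern the embryo tend to be flanked by long regulatory stretches with many enhancers.

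The number of summits chose the tiles, so it is a description with no test. Of the dense tiles, 43 sat at the threshold with 12 summits, 16 held 13, 15 held 14, 13 held 15 and the rest held 16 to 21. Just outside, 56 tiles held 11 summits and 68 held 10. The tiles just inside and just outside the threshold differed somewhat, and the differences were not tested. Those with 12 summits had a mean of 8.33 protein-coding genes and 46.1% of their summits at promoters. Those with 11 summits had more genes, 9.98, and 51.9% at promoters. The median deposited signal value of the peaks was 463 with 12 summits and 510 with 11.

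**Figure D1:**
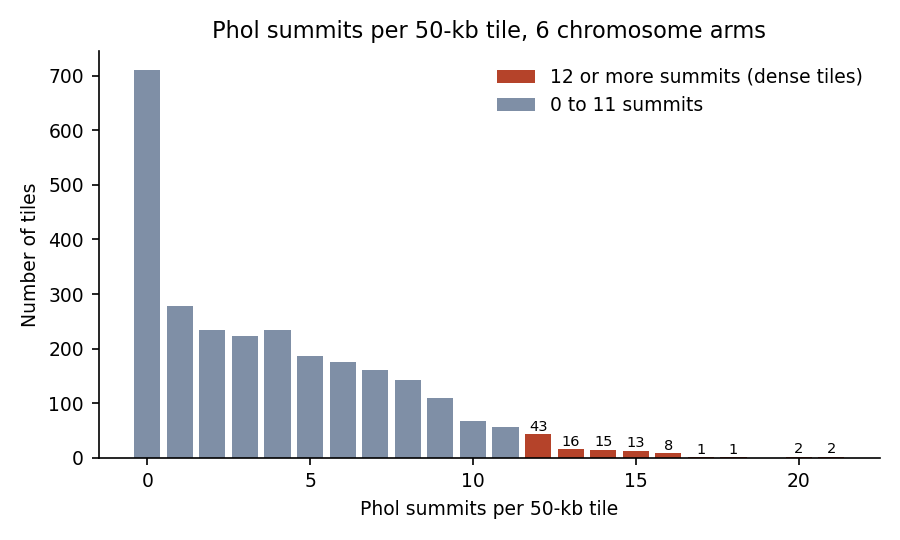
Number of 50-kb tiles (vertical axis) by the number of Phol summits of the reproducible list in the tile (horizontal axis), with dense tiles in red and all others in grey-blue. The counts show no gap at the threshold, with 43 tiles at 12 summits and 56 at 11, and 2 tiles reached 21.

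Of the 6 arms, 5 held dense tiles, and 3L held the most. There, 31 of 563 tiles (5.51%) were dense, with 445 summits. The X chromosome had 20 of 471 (4.25%), 2L 18 of 471 (3.82%), 3R 19 of 642 (2.96%) and 2R 13 of 506 (2.57%). The small chromosome 4, with 59 summits in 27 tiles, had 0. Most dense tiles stood alone: 82 had no dense tile beside them, 6 runs held 2 tiles each, 1 run held 3 and 1 run held 4.

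The replicates put similar numbers of their own summits in these tiles. Among the strongest 10264 peaks of each replicate, 1320 lay in the dense tiles in replicate 1, 1342 in replicate 2 and 1354 in replicate 3. Of the dense tiles, 68.3% also reached 12 summits in replicate 1, 77.2% in replicate 2 and 78.2% in replicate 3. All 3 replicates did so for 54 tiles (53.5%), and at least 1 replicate for 93 (92.1%). Some tiles thus crossed the threshold from replicate to replicate, while each of the 12 densest held 13 or more summits in all 3. The pooled reads of these replicates also chose the tiles. Of the summits in dense tiles, 82.5% had a summit within 250 bp among the strongest 10264 of all 3 replicates, and of those in tiles with 1 to 11, 79.8%.

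**Figure D2:**
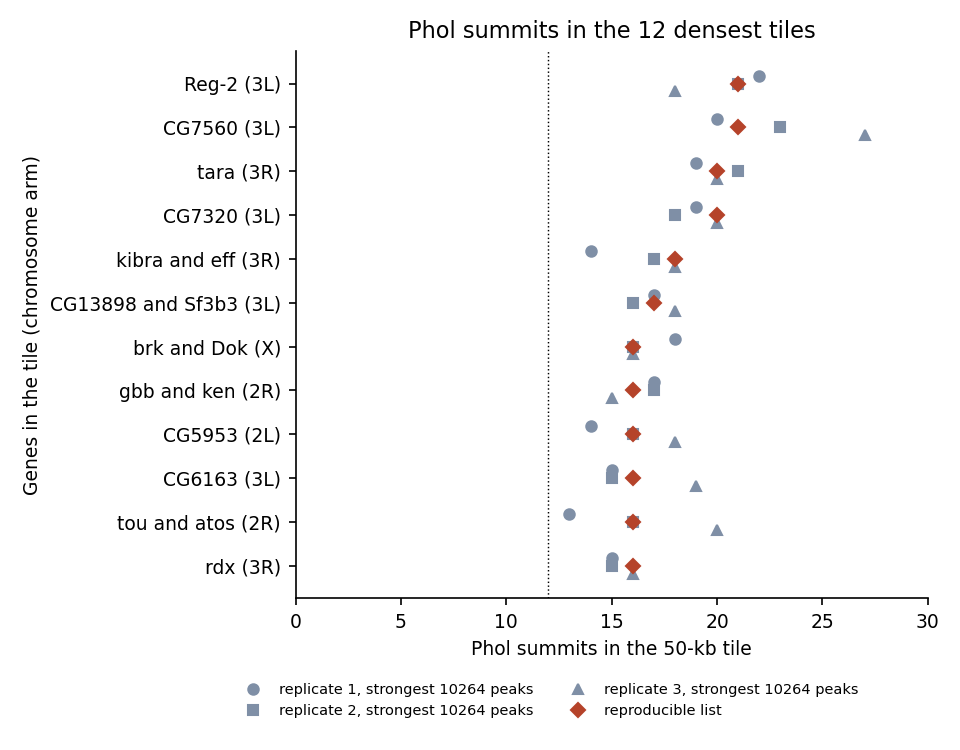
The 12 densest tiles, named by genes in or beside them with the chromosome arm, against the number of summits in the tile. Red diamonds are the reproducible list, grey symbols the strongest 10264 peaks of each replicate, and the dotted line marks 12 summits; the symbols of all 3 replicates lie between 13 and 27 in these tiles.

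Sequences at summits of the densest tiles are shown because most of these summits lie away from promoters, where the DNA itself is the landmark. In 10 of the 12 densest tiles, 181 windows reach 50 bp to either side of a summit. Of them, 173 overlapped no untranslated region or coding exon. The extended site GCCATNTT (N is any base) was on either strand in 4 of the 173. That share is close to the 2.05% of all windows of this length on the 6 arms, and below the 5.46% over all dense tiles. The 4 windows are thus examples and not typical of the densest tiles. Of the 4, 3 are printed below from the release 6 genome, plus strand, 5′ to 3′, with the extended site in capitals. They came from an intron of Tpr2, which encodes a chaperone-associated protein, from an intron of CG1677 at 7491 bp from the start of brk, and from a site 5445 bp from the start of CG13898.
Tpr2 intron, chr2L:16500520-16500620: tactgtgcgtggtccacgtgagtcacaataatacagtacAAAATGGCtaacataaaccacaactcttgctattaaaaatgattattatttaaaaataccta
CG1677 intron, chrX:7300398-7300498: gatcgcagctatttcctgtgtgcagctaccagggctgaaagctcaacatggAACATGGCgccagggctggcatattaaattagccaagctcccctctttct
Near CG13898, chr3L:809446-809546: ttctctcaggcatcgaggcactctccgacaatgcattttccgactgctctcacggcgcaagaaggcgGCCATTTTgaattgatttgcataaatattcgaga

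The next windows lie at the strongest summit of 3 of the 4 densest tiles, none of them at a promoter, a set chosen after the data were seen. None of them held the extended site, and the capitals mark the shorter core GCCAT on either strand, which was in 2 of the 3. Their content of G and C was 19.8% in the tile of CG7560, 45.5% beside tara and 33.7% in the tile of CG7320.
Tile of CG7560, chr3L:11418411-11418511: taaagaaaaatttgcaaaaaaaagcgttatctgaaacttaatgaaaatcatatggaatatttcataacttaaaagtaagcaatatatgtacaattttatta
Beside tara, chr3R:16222453-16222553: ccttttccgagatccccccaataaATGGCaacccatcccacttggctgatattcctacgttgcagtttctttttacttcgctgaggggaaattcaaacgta
Tile of CG7320, chr3L:18238703-18238803: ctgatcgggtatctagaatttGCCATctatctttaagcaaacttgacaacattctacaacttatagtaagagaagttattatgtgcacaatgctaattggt

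Over all dense tiles, the extended site was in 75 of 1374 summit windows (5.46%), against 606 of 8890 (6.82%) in tiles with 1 to 11 summits and 2.05% of all windows of this length on the 6 arms. Within these dense tiles, replicate 1 gave 4.70%, replicate 2 gave 5.07% and replicate 3 gave 6.28%, and in the tiles with 1 to 11 they gave 5.89%, 6.26% and 7.65% in that order. Each replicate's share was thus lower in dense tiles. With each replicate's own dense tiles the mean difference was −1.33 percentage points ± 0.592 (SD, n = 3; exact sign-flip permutation test, two-sided p = 0.25, the smallest p that 3 replicates allow). In the reproducible list it was −1.36 points, and −2.42 with the threshold at 15 summits. GCCATNTT was at 6.13% of promoter summits and 5.02% of the others in dense tiles, and at 7.44% and 6.16% in tiles with 1 to 11. The core GCCAT, which every extended site also holds, was at 17.7% of summits in dense tiles and 19.9% in the other group. It was in 19.7% of all windows of this length. The median content of G and C in the summit windows was 30.7% in dense tiles and 31.7% in the other group. Whole tiles averaged 42.6% in both groups, so the shares of all windows are not matched for this content.

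Words of promoter factors were mostly at promoter summits. TATCGATA, the DNA replication-related element bound by the factor DREF, was at 5.02% of promoter summits and 0.359% of other summits in dense tiles, and at 6.03% and 0.345% in tiles with 1 to 11. GGTCACAC, bound by the promoter factor M1BP, was at 3.72% and 0.598% in dense tiles, and at 3.74% and 0.299% in tiles with 1 to 11. In all windows of this length these words stood at 0.275% and 0.210%. Repeats were rare in dense tiles: GAGAGAG, a word bound by the Trl protein, was at 12 summits (0.873%, against 1.18% in tiles with 1 to 11), and GTGTGTGT was at 9 (0.655%, against 1.33%), with 1.24% and 1.86% of all windows. CAGGTAG, a word of the early activator Zelda, was at 8 (0.582%, against 0.326%), with 0.534% of all windows. These words were chosen after the data were seen, were searched on both strands, and received no test. The shares of all windows were not matched for content of G and C.

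Dense tiles held more genes than the other tiles, though not many more. A mean of 7.88 ± 5.24 protein-coding genes had their most upstream start in a dense tile, against 6.25 ± 4.57 in tiles with 1 to 11 summits (SD over tiles), a ratio of 1.26. The medians were 7 and 6 genes, and the range was 0 to 20 in dense tiles and 0 to 27 in the others, so the groups overlapped over nearly their whole range. Distinct coding starts averaged 11.5 per dense tile and 8.74 per other tile. When each replicate defined its own dense tiles, the ratio was 1.46 in replicate 1, 1.36 in replicate 2 and 1.25 in replicate 3. The mean number of summits, which the choice of tiles fixes, was 13.6 per dense tile and 4.76 per tile with 1 to 11.

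The densest tiles were poor in genes. Below the threshold the mean gene number was higher the more summits a tile held, with 3.86 genes in tiles with 1 summit, 6.17 with 4 or 5, and 8.78 with 9 to 11. Above it the mean was 8.41 in tiles with 12 or 13 summits, 8.25 with 14 or 15, and 4.93 in the 14 tiles with 16 to 21. Of the 27 tiles with 15 or more summits, 20 held 5 or fewer protein-coding genes. With the threshold set at 15 instead of 12, the ratio of gene number to the other tiles was 0.888, so the direction turned. Coding gene bodies covered a mean of 72.8% of dense tiles and 72.8% of tiles with 1 to 11, and the content of G and C averaged 42.6% in both groups.

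Summits of dense tiles lay at promoters less often than those of other tiles. Within 500 bp of an annotated start of any gene lay 538 of 1374 summits (39.2%), against 4542 of 8890 (51.1%) in tiles with 1 to 11 and 49.5% of all summits of the list. In the dense tiles, replicate 1 had 41.2% of its summits at promoters, replicate 2 had 40.3% and replicate 3 had 35.7%. In tiles with 1 to 11 replicate 1 had 53.8%, replicate 2 had 52.4% and replicate 3 had 48.2%. The highest replicate value in dense tiles was below the lowest in the other tiles, and the gap was similar within each replicate. When each replicate defined its own dense tiles, the difference was −7.56 percentage points in replicate 1, −10.6 in replicate 2 and −12.5 in replicate 3 (mean −10.2 ± 2.51, SD, n = 3; exact sign-flip permutation test, two-sided p = 0.25, the smallest p that 3 replicates allow). In the reproducible list the difference was −11.9 points, and its size depended on the scale of the tiles and on the threshold: it was −5.24 at 10 or more summits, −27.3 at 15 or more, −5.97 for 25-kb tiles with 6 or more and −20.5 for 100-kb tiles with 24 or more.

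Over all dense tiles, a lower share did not mean fewer promoter summits per tile. A dense tile held a mean of 5.33 ± 3.37 promoter summits and 8.28 ± 4.29 other summits, against 2.43 ± 2.26 and 2.33 ± 2.15 in tiles with 1 to 11 (SD over tiles). Both kinds were more numerous in dense tiles, which the choice by total summits favours, and the summits away from promoters more so. The 14 tiles with 16 to 21 summits averaged 3.43 promoter summits, fewer than the 5.03 of tiles with 9 to 11. Introns and other parts of genes held 482 summits of dense tiles (35.1%, against 32.0% in tiles with 1 to 11), and 335 lay between genes (24.4%, against 15.2%). Coding exons held 3 (0.218%, against 0.337%), 3′ untranslated regions 8 (0.582%, against 0.979%) and 5′ untranslated regions 8 (0.582%, against 0.405%). Of the 538 promoter summits in dense tiles, 37 (6.88%) were within 500 bp of a noncoding start only, against 4.58% in tiles with 1 to 11.

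**Figure D3:**
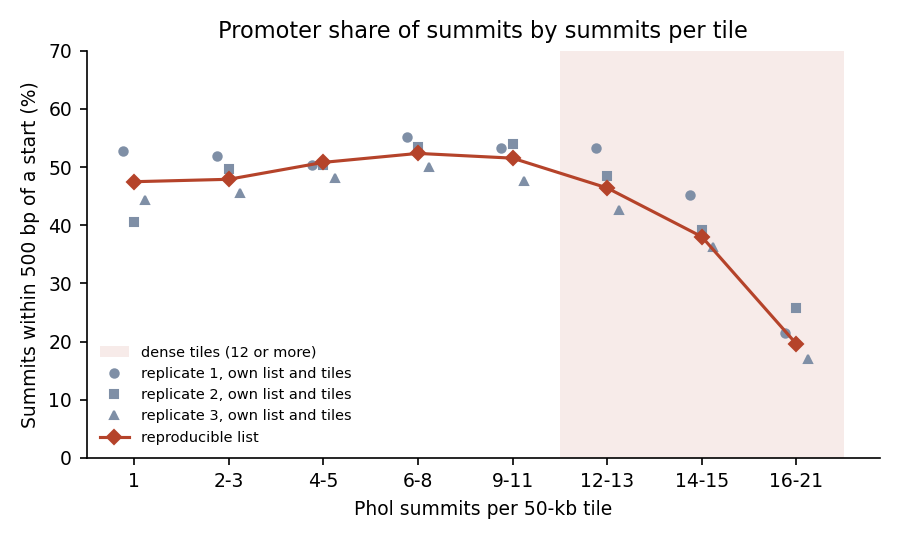
Percent of summits within 500 bp of an annotated start (vertical axis) by the number of summits in the tile (horizontal axis). Red diamonds are the reproducible list, grey symbols each replicate with its own strongest 10264 peaks and its own tile counts, and the shaded area marks dense tiles; the reproducible list stands between 47.5% and 52.3% up to 11 summits and at 46.4%, 38.02% and 19.6% in the 3 dense classes.

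In the reproducible list the promoter share dropped step by step above the threshold. It was 46.4% in tiles with 12 or 13 summits, 38.02% with 14 or 15 and 19.6% with 16 to 21. Replicate 1, by its own counts, had 53.3% both with 12 or 13 summits and with 9 to 11. Replicates 2 and 3 were lower with 12 or 13 than with 9 to 11. By each replicate's own counts, tiles with 16 or more summits had 21.4% in replicate 1, 25.7% in replicate 2 and 17.1% in replicate 3, each below the 47.6% to 54.0% that the replicates gave for tiles with 9 to 11. Single tiles spanned the whole range. In 32 dense tiles (31.7%, against 28.5% of tiles with 1 to 11) under 25% of the summits were at promoters, and in 14 (13.9%, against 32.6%) 75% or more were. Of the tiles with 1 to 11, 278 held only 1 summit, so their promoter share can only be all or none. The percents of tiles are thus not matched for summit number. Of the dense tiles, 7 had no promoter summit and 2 had no other kind.

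The promoter share of dense tiles differed with their gene number. The 36 dense tiles with 0 to 4 protein-coding genes held 523 summits, of which 16.1% were at promoters (replicates 16.8%, 16.4% and 14.68% in order of number). The 28 tiles with 5 to 9 genes held 372 summits with 37.6% at promoters, and the 37 tiles with 10 or more genes held 479 with 65.6% (replicates 68.3%, 67.4% and 62.1%). Since starts define promoters, a link with gene number is built in. Dense tiles were lower than the others at like gene number too. The groups still differ in summit number by choice there, and few starts leave little room for more promoter summits. The lower share at like gene number is thus a description and was not tested. Tiles with 1 to 11 summits had 24.7% with 0 to 4 genes, 56.2% with 5 to 9 and 74.4% with 10 or more. In the gene-poor dense tiles 44.6% of summits lay in introns or other parts of genes and 38.05% between genes. Of these summits, 0 held TATCGATA, against 4.59% of the summits in the gene-rich dense tiles. Tiles with 1 to 11 summits differed in the same direction, with 1.28% at 0 to 4 genes and 5.02% at 10 or more.

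**Figure D4:**
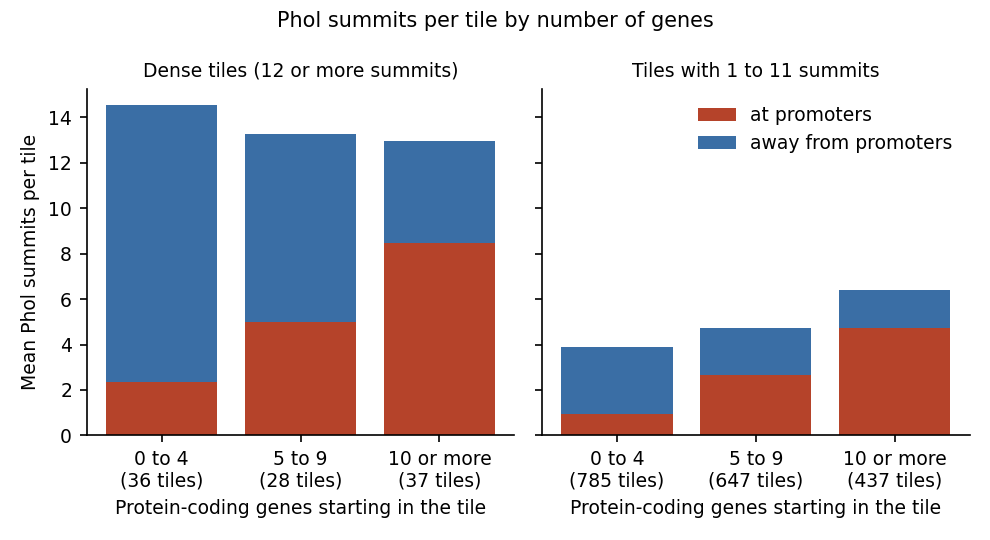
Mean number of summits per tile at promoters (red) and away from them (blue), by the number of protein-coding genes that start in the tile, for dense tiles (left) and tiles with 1 to 11 summits (right). Dense tiles with 0 to 4 genes averaged 2.33 promoter summits and 12.2 others, and those with 10 or more genes 8.49 and 4.46.

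The tiles with the most summits included loci of developmental regulators and long stretches with few genes. A tile on 3L (600001 to 650000), first by summed signal of the 2 with 21 summits, held them beside Reg-2, and replicates 1, 2 and 3 gave 22, 21 and 18. Only 4 of the 21 were at promoters, 3 coding genes and 8 noncoding genes started there, and coding gene bodies covered 13.7% of the tile. The other tile with 21 summits (3L, 11400001 to 11450000) had 0 at promoters, and replicates 1, 2 and 3 gave 20, 23 and 27. Its strongest summit (rank 238 of 10264) stood 6697 bp from the start of CG7560 and was within the strongest 0.993% of the list of replicate 1, 0.713% of replicate 2 and 0.767% of replicate 3. Both tiles were above the threshold in every replicate, though the pooled reads of these replicates also chose them.

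That tile ends the longest run. The 4 neighbouring tiles from 11250001 to 11450000 on 3L held 66 summits, of which 3 were at promoters (4.55%), and 10 protein-coding genes, of which 1 was occupied. A gene is called occupied when a summit lies within 500 bp of any of its starts. The replicates put 59, 66 and 75 of their summits there. The genes at the edge of the run include scyl, an inhibitor of cell growth, whose start was the nearest coding start for 7 summits away from promoters. A run of 3 tiles (3L, 700001 to 850000) held 48 summits, 9 at promoters, in the region of emc, which encodes a helix-loop-helix protein that blocks proneural factors. In contrast, the 2 neighbouring tiles on 2L from 10350001 to 10450000 had 25 of 27 summits at promoters and 32 of 37 coding genes occupied, so a long dense stretch was not always a gene-poor one.

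The gene tara, which encodes a coregulator of the trithorax group, led the third tile (3R, 16200001 to 16250000). It held 20 summits, with 19, 21 and 20 in replicates 1, 2 and 3, and 5 were at promoters. Its strongest summit (rank 279) was 3148 bp from the coding start of tara and 892 bp from a noncoding start, and the second (rank 285) lay in an intron of tara. tara itself had no summit within 500 bp of a start. The fourth tile (3L, 18200001 to 18250000) had 20 summits, with 19, 18 and 20 in replicates 1, 2 and 3, 1 promoter summit, and CG7320 as the single coding gene to start in it.

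Of the other tiles among the 10 densest, 3 held a member of a list of signalling genes. The tile of kibra, a component of the Hippo growth-control pathway, and eff, a ubiquitin-conjugating enzyme (3R, 14700001 to 14750000), had 18 summits, 6 of them at promoters, and its strongest (rank 680) lay in an intron of eff. The replicates gave 14, 17 and 18 there. The tile of brk, a repressor of targets of the growth factor Dpp (X, 7300001 to 7350000), had 16 summits, 3 at promoters, and 18, 16 and 16 in the replicates. A summit of rank 302 stood 735 bp from the start of brk, outside the promoter window, and brk was not occupied. The tile of gbb, a growth factor of the same family as Dpp, and ken, a transcriptional repressor (2R, 23850001 to 23900000), had more genes than any other of the 10 densest: 20 coding genes started in it, 16 of them were occupied, and 12 of its 16 summits (75%) were at promoters.

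Genes with long bodies or introns held many of the summits away from promoters. Gene bodies with the most such summits of dense tiles included sbb, a transcriptional corepressor, with 15, shn, a zinc-finger factor of the Dpp pathway, with 13, and fz2, a Wnt receptor, with 12. kirre, which acts in the fusion of muscle precursors, and mew, an integrin subunit, also had 12, and Ten-a, a cell-surface protein of synapses, had 11. Antp, a Hox gene, cic, a repressor downstream of EGFR signalling, and raskol had 10 each, aop, an ETS-family repressor in the same pathway, had 8, as had pnt, an ETS-family activator, and Wnt4 had 6. The bodies of these genes measured from 21753 bp for Wnt4 to 394149 bp for kirre. A longer body can hold more summits, and genes that overlap share them: the 10 in Antp also lie in CG46458. Of these genes, fz2, kirre, aop and Wnt4 had no summit within 500 bp of a start. Other bodies with similar numbers were those of CG1677 with 13, MSAmiP with 11, CG33158 with 10, and rdx and tara with 9 each.

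By nearest coding start, CG13898 had the most summits away from promoters in dense tiles, 15, followed by shn and tara with 13. fz2, CG43245, CheA75a and hng3 had 12, aop and Ids 11, and Antp, Myc, cic, raskol and CG6163 10 each. Myc encodes a transcription factor that drives growth. The strongest of the 10 near Myc had rank 1357 and their median distance from its start was 15464.5 bp, while for aop these values were 667 and 2150 bp. chinmo, which controls the timing of neuron identity, was nearest for 7, with a best rank of 197, and slp2, a segmentation gene of the forkhead family, for 5, with a best rank of 282. The nearest start is a position only and was not tested as a target. Over all 836 summits away from promoters in dense tiles, the median distance to a coding start was 3976 bp, against 3736 bp for the 4348 in tiles with 1 to 11, and 20.9% and 21.9% lay over 10 kb away.

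Neighbouring summits stood closer together in dense tiles, as their number requires. The median distance to the nearest other summit was 1336 bp there and 2523 bp in tiles with 1 to 11. Under 1000 bp from another summit stood 39.3% of the summits in dense tiles and 24.6% of those in tiles with 1 to 11, and 4.80% and 4.32% shared a deposited interval with another summit. With summits under 500 bp apart merged, 77 tiles still held 12 or more.

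Genes of dense tiles were occupied more often. Of 796 protein-coding genes that start in them, 535 were occupied (67.2%), against 5146 of 11678 (44.1%) in tiles with 1 to 11 and 40.8% of all 13945 genes. The difference of 23.1 percentage points was 15.2 with the threshold at 15 summits. Below the threshold the share was 14.9% in tiles with 1 summit, 40.1% with 4 or 5 and 63.0% with 9 to 11. Above it the share was 67.9% with 12 or 13, 68.8% with 14 or 15 and 56.5% with 16 to 21. Tiles with 9 to 11 summits were thus close to dense tiles, and the densest were lower. Occupancy rests on the same summits that chose the tiles, so it is a description with no test. Each replicate with its own tiles gave 70.7%, 67.3% and 61.4% in dense tiles, against 46.2%, 44.1% and 39.7%. Genes with a divergent neighbour that starts within 500 bp made up 33.2% of the genes in dense tiles and 26.1% of the others. Of these, 93.2% were occupied in dense tiles and 78.2% in tiles with 1 to 11, and of genes without one 54.3% and 32.0%. The median gene length was 2332 bp in dense tiles and 2251 bp in the others.

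Noncoding genes differed by class. Dense tiles, which hold the start of 5.71% of protein-coding genes, held 37 of 269 snoRNA genes (13.8%), the small RNAs that guide modification of ribosomal RNA. Of these 37, 14 lie by RpS5a on the X chromosome and 9 by Sf3b3 on 3L, so a few clusters made up most of the count. They held 169 of 3261 other noncoding RNA genes (5.18%), 6 of 290 tRNA genes (2.07%), 3 of 268 pseudogenes (1.12%) and 0 of 99 ribosomal RNA genes.

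Of the 26 gene lists examined, the Polycomb group had the largest share in dense tiles, from small numbers. Of 23 matched members 5 started there (21.7%, against 5.71% of all protein-coding genes), in 3 tiles. All 5 were occupied, against 14 of 18 members in tiles with 1 to 11 (77.8%) and 67.2% of all coding genes in dense tiles. These were Jarid2 (rank 8, the strongest summit of any dense tile), ph-p (rank 35) and its tandem copy ph-d (rank 4290), phol itself (rank 1315) and l(3)73Ah (rank 2413). The pairs Jarid2 with phol and ph-p with ph-d share a tile each, so the tiles are fewer than the genes. Jarid2 encodes a partner of Polycomb repressive complex 2 and ph-p and ph-d subunits of Polycomb repressive complex 1. The near-identical copies ph-p and ph-d can trade reads, and how the authors treated reads that map to both is not given in the sources used here. The transgene also carries phol sequence, and how far it reaches around the gene is not known here. Extra copies may thus add reads in the tile of phol and Jarid2, which was not tested. That tile had a median signal value of 1135.

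Trithorax group and remodeler genes had 4 of 31 in dense tiles (12.9%, against 5.71% of all protein-coding genes). All 4 were occupied, against 67.2% of all coding genes in dense tiles. In tiles with 1 to 11, 26 of the 27 members were occupied (96.3%). The 4 in dense tiles were kis (rank 104), Bap111 (rank 422), Trl (rank 1534) and Utx (rank 7333). kis and Bap111 encode chromatin remodelling factors, Trl the GAGA factor and Utx a histone demethylase. Of the insulator protein genes 1 of 13 was there, Cp190 (rank 22).

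The signalling list, with members of the Wnt, Hedgehog, Dpp, EGFR, Notch and Hippo pathways, had 11 of 77 in dense tiles, in 11 different tiles. This was 14.3%, against 5.71% of all protein-coding genes. Of these, 7 were occupied, against 62.5% of the members in tiles with 1 to 11 and 67.2% of all coding genes in dense tiles. The occupied ones were aos, a secreted inhibitor of EGFR (rank 651), kibra (rank 1913), mam, a Notch coactivator (rank 2195), gbb (rank 2860), smo, the Hedgehog signal transducer (rank 3724), mib1 (rank 3868) and pnt (rank 5963). The other 4, Dad, Wnt4, aop and brk, had no summit within 500 bp of a start though their tiles held 12 to 16.

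Hox genes had 0 of 8 starts in dense tiles, although the body of Antp crosses one, and another lies in the bithorax complex with 12 summits, among them the strongest on 3R in any dense tile (rank 17). The other homeobox, T-box and Pax genes had 6 of 76 (7.89%, against 5.71% of all protein-coding genes). Of these, Doc1, Doc2 and Doc3, T-box genes of the heart and amnioserosa, share a tile of 14 summits and were all occupied (ranks 3490, 4337 and 1815). Of the 6, 5 were occupied, against 44.8% of members in tiles with 1 to 11 and 67.2% of all coding genes in dense tiles. oc, a head patterning gene (rank 744), and Lim3 (rank 7372) were occupied and PHDP was not.

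Genes of the basic machinery of the cell had 3.45% to 13.5% of their members in dense tiles, on both sides of the 5.71% of all protein-coding genes. The cytosolic ribosomal protein genes had 8 of 90 in dense tiles (8.89%), all 8 occupied, as were 91.4% of those in tiles with 1 to 11. They were led by RpL30 (rank 908), RpS5a (rank 1063) and RpS12 (rank 1253). The mitochondrial ribosomal protein genes had 5 of 73 (6.85%), led by mRpS7 (rank 1181), which shares its summit with the mitotic kinase gene Cdk1. Oxidative phosphorylation had 7 of 68 (10.3%), the translation factors 5 of 37 (13.5%), led by eIF6 (rank 278), the spliceosome 3 of 40, DNA replication 4 of 41 (9.76%), mitosis and cohesion 3 of 48 (6.25%), tRNA synthetases 2 of 33 (6.06%), general transcription factors 2 of 37 (5.41%), the proteasome 2 of 48 (4.17%) and Mediator 1 of 29 (3.45%). In these 11 lists 40 of the 42 members in dense tiles were occupied (95.2%), against 399 of 492 (81.1%) in tiles with 1 to 11, where the shares of all coding genes were 67.2% and 44.1%. The other 2 were RfC3, a clamp loader subunit, and PheRS-m, a mitochondrial synthetase.

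Families of chemosensory, cuticle, detoxification, chorion and yolk, protease and Osiris genes had 0% to 5.88% of their members in dense tiles. Chemoreceptor genes had 8 of 180 in dense tiles (4.44%), and Gr63a and Ir31a were the 2 that were occupied. A cluster of 4, Gr93a to Gr93d, lies in a tile with 15 summits and none of them was occupied. Cuticle protein genes had 4 of 122 (3.28%) with 0 occupied, odorant-binding protein genes 3 of 51 (5.88%) with 1, cytochrome P450 genes 2 of 81 (2.47%) with 1, and glutathione S-transferase and UDP-glycosyltransferase genes 4 of 70 (5.71%) with 2. In these 5 families 6 of 21 members in dense tiles were occupied (28.6%), against 17 of 382 (4.45%) in tiles with 1 to 11, and both shares were below those of all coding genes in the same tiles, 67.2% and 44.1%. Chorion and yolk genes (18 matched), Jonah and trypsin protease genes (27) and Osiris genes (25) had 0 in dense tiles. So did the 30 matched heat shock and chaperone genes.

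Peaks in dense tiles were about as strong as elsewhere. The deposited signal value, which has no stated scale and ranks peaks within the list, had a median of 489 in dense tiles (quartiles 323 and 896), against 484 in tiles with 1 to 11 (322 and 852). It comes from the same list as the rule, so it received no test. The strongest 500 peaks of the list included 70 from dense tiles, 5.09% of their summits, against 4.84% of the others. In the replicate lists of 30000, the median percentile rank of the summits in dense tiles was 16.4%, 16.2% and 15.3% in replicates 1, 2 and 3, against 16.1%, 16.2% and 16.4%. The groups overlapped almost completely. The median rank within the reproducible list, as a percent of its length with small meaning strong, was 49.5% in dense tiles and 50.2% in tiles with 1 to 11, a difference of −0.658 points that was −4.10 with the threshold at 15 summits.

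The order of the groups differed by location. Promoter summits had a median signal value of 496 in dense tiles and 544 in tiles with 1 to 11, while summits away from promoters had 486 and 432. The strongest 2566 peaks of the list took in 27.9% of promoter summits and 25.6% of the others in dense tiles, and 30.6% and 18.7% in tiles with 1 to 11. Of the summits away from promoters, 4.19% in dense tiles and 2.12% in the others were among the strongest 500.

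**Figure D5:**
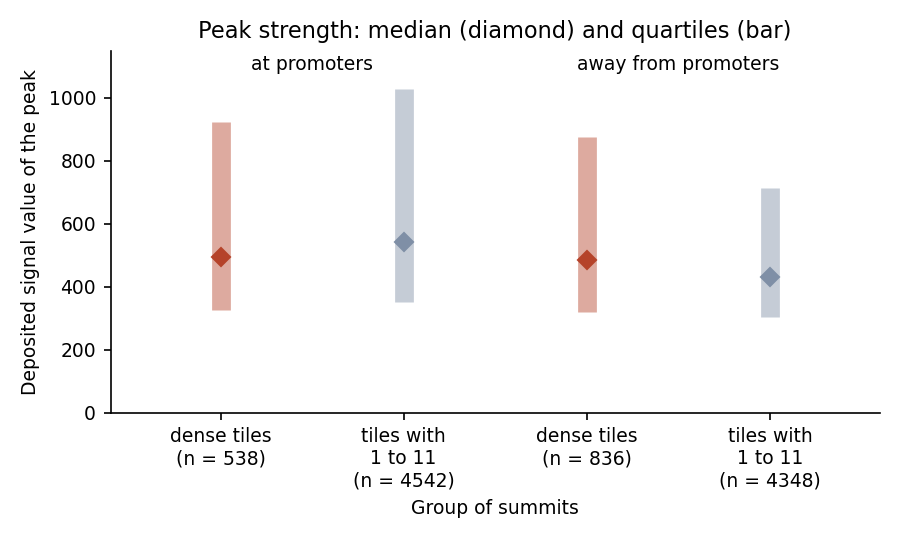
Deposited signal value of the peaks, with the median (diamond) and the range between the quartiles (bar), for summits at promoters and away from them, in dense tiles (red) and tiles with 1 to 11 summits (grey-blue). The medians are 496 and 544 at promoters and 486 and 432 away from promoters, and the bars overlap in each pair.

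Of the 2 strongest summits in dense tiles on each of 5 arms, 8 of 10 were at promoters. Of the 70 summits of dense tiles among the strongest 500 of the list, 35 were at promoters and 35 away from them. Of the 430 from tiles with 1 to 11, 338 were at promoters. On 2L the 2 strongest were at da (rank 42, 11 bp from a start) and PNUTS (rank 83), and both held GCCATNTT. da encodes the common partner of proneural helix-loop-helix proteins and PNUTS a nuclear subunit of protein phosphatase 1. On 2R they were at CG12391 (rank 94), also with GCCATNTT, and in the body of CG12769 (rank 145). On 3L they were at Jarid2 (rank 8) and CG3552 (rank 43), in the same tile as phol, where transgene copies may add reads. On 3R they were in the bithorax complex (rank 17, with GCCATNTT) and at Cp190 (rank 22). On the X chromosome both were within 500 bp of starts of ph-p (ranks 35 and 107). Each of these 10 was within the strongest 0.627% of every replicate list.

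Weaker peaks added to the same tiles. The pooled list of 30000 peaks, which includes those below the reproducibility threshold, had a mean of 30.4 summits per dense tile and 14.1 per tile with 1 to 11. The tile of CG6163 had the most of the 10 densest, with 52 against 16 in the reproducible list. The ratio between the groups was smaller in this list than in the reproducible list, from which the tiles were chosen.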

How the data were processed

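The authors deposited narrowPeak lists on the dm6 build, called on each of 3 replicates and on their pooled reads with a control alignment, and a list thresholded on the irreproducible discovery rate, per the submitters' readme texts. The aligner, caller and threshold value were not given in the sources used here. The score deposited per peak is the caller's signal value; the deposited −log10 q-value was not used. A check showed the reproducible peaks to be the top 10264 of the pooled list by signal value. Summits (column 2 plus column 10) were placed on release 6 sequence (99.83% of start codons read ATG) with Ensembl release 115, without 5809 transposable-element entries. Genes were placed by their most upstream start, in 2680 tiles of which 101 were dense, and words were searched in 101-bp windows. Replicate values use each replicate's strongest 10264 peaks. Because 3 replicates share 1 pooled list and neighbouring summits are not independent, differences are described, with exact sign-flip tests over replicates for promoter and word shares only. Named were the 10 densest tiles with their strongest summits, the 2 strongest per arm and up to 3 members per list; other genes were chosen after their values were seen. Members and lists were chosen with earlier results of these data known. Symbols that matched no coding gene were not used. Scripts were tested on simulated data. Python 3.11.15, NumPy 2.4.6, pandas 2.3.3 and Matplotlib 3.10.9 were used. Alternatives changed the threshold, tiles, list, windows and starts. A gene in the densest tiles and the sequences beside it are not reported here.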

Additional observations from a re-analysis of the deposited data

How the results depend on the processing

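Sample groups could not be paired, because there is no second group. Differences between tile groups were taken within each replicate, and the sign-flip tests used these differences. The number of tiles was 225 with 10 or more summits, 27 with 15 or more, 440 for 25-kb tiles with 6 or more, 13 for 100-kb tiles with 24 or more and 211 for the strongest 5132 peaks with 6 or more. Leaving out each replicate from the mean of the replicates' own lists gave 95 to 101.5 tiles. The gene ratio of 1.26 turned to 0.888 with 15 or more summits, and was 1.00 with 100-kb tiles, 1.12 with close summits merged, 1.37 with the strongest 5132 peaks, 1.45 with 10 or more summits and 1.55 when tiles without a summit were included; without each replicate it was 1.31 to 1.41. The promoter share stayed lower in dense tiles under every alternative run. The difference of −11.9 percentage points was −5.24 with 10 or more summits, −27.3 with 15 or more, −9.35 with shifted tiles, −5.97 with 25-kb tiles, −20.5 with 100-kb tiles, −5.34 with the strongest 5132 peaks, −16.9 with merged summits and −8.84 with a 1000-bp promoter window, and −11.6 to −9.07 without each replicate. The median rank percentile differed by −0.658 points (smaller is stronger), and by −3.05 with 10 or more summits, −4.10 with 15 or more, −1.85 with shifted tiles, −2.84 with 25-kb tiles, −1.83 with the strongest 5132 peaks, −2.15 in the replicate mean and −2.57 to −1.77 without each replicate. The difference in GCCATNTT, −1.36 points, was −2.42 with 15 or more summits, −2.30 with 100-kb tiles and −2.19 for GCCAT; without each replicate it was −1.54 to −0.990. The difference in occupied genes, 23.1 points, was 15.2 with 15 or more summits, 27.6 with shifted tiles, 26.9 with 25-kb tiles, 16.2 with 100-kb tiles, 18.8 with a 200-bp window and 26.2 with 1000 bp, and 22.4 to 23.9 without each replicate. The causes were not tested. Read depth is unknown, so no counting interval can be given for a tile.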
